A study of Bassia scoparia with 27 samples.

Results

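Baseline expression was compared between 2 fluroxypyr-susceptible kochia (Bassia scoparia) lines, 9425 and J01-S, in tissue harvested before any herbicide was applied. The labels name the tissue as meristem, while their extraction text names young leaves. The comparison uses the 3 untreated 9425 libraries (plants 1, 2 and 3) and the 2 untreated J01-S libraries (plants 1 and 4), and it was made on log2 of the normalized count plus 1. Its members are the 25065 transcripts, from 23237 gene loci, whose normalized count reached 10 in 2 or more of these 5 libraries, of 45517 transcripts from 43114 loci in all. The other 20452 transcripts were not tested, and 7313 of them were listed at 0 in all 5 libraries.

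Line 9425 is an inbred line that is resistant to dicamba and susceptible to fluroxypyr. J01-S is a fluroxypyr-susceptible population collected from a field in eastern Colorado. The whole series holds 27 libraries of these lines and of the fluroxypyr-resistant line Flur-R (B3 in the labels), both untreated and 3 or 10 h after fluroxypyr was sprayed (HAT, hours after treatment). All untreated plants had been sprayed with water, each library is 1 plant, and the 3 untreated Flur-R libraries (plants 2, 3 and 4) entered the fit only to estimate the spread between plants. According to the methods 3 J01-S plants and 1 Flur-R plant were in early flowering. Which libraries these are is not given in the sources used here, so line and flowering stage cannot be told apart, and the same holds for the RNA extraction batches.

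Plants of different lines can differ in expression for many reasons that have nothing to do with a treatment, since each line carries its own alleles at promoters and coding sequences and its own set of gene copies. In plants, genes for specialised metabolism and defence often sit side by side as tandem copies, and such groups are known to vary in copy number within a species. A transcript abundant in every plant of 1 line and listed at 0 in every plant of another is the extreme form of such a difference, and loci close together on a chromosome are inherited together in most crosses. Several gene families of interest in herbicide studies belong to this background: cytochrome P450s oxidise hormones and xenobiotics, glycosyltransferases attach sugars to the products, and ABC transporters move small molecules across membranes.

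The normalized counts of a library summed to 59.4 to 76.9 M in 9425 and to 72.7 and 75.2 M in J01-S. Between 23404 and 23932 transcripts per library reached a normalized count of 10. Over the tested transcripts, log2 values correlated at 0.916 to 0.944 between 9425 plants, at 0.901 between the J01-S plants and at 0.816 to 0.843 between plants of different lines. The leaf genes fixed as markers were high in both lines. The chlorophyll a/b binding protein Bs.00g240870.m01, which collects light for photosynthesis, was at 558111, 301017 and 397919 in 9425 and at 414710 and 401035 in J01-S. Magnesium chelatase subunit H (Bs.00g192330.m01), an enzyme of chlorophyll synthesis, averaged 260970 in 9425 and 256612 in J01-S, and none of the 4 leaf markers was called. The cyclin Bs.00g535430.m01, a marker of dividing cells, had 121 to 164 in 9425 and 112 and 304 in J01-S. The MADS-box transcript Bs.00g306100.m01, the only flowering candidate described, had 10, 13 and 14 in 9425 against 7 and 4 in J01-S (log2 fold change 1.06 ± 0.56 SE, limma adjusted p = 0.398). Tissue make-up and less RNA per cell cannot be told apart in these bulk samples.

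A transcript was called at a Benjamini-Hochberg adjusted p under 0.05 in limma if its log2 fold change was also over 0.5 in either direction. By this rule 255 transcripts were higher and 505 lower in 9425 than in J01-S, which is 3.03% of those tested (1.02% higher, 2.01% lower), and 4189 had an unadjusted p under 0.05. The excess of lower transcripts rests in part on 1 library. When Flur-R plant 2 was left out the counts were 431 and 515, and with no Flur-R library in the fit they were 409 and 492, of which 179 and 386 were among the 255 and 505. Without 9425 plant 2 they were 145 and 348, and without 9425 plant 3 they were 106 and 333. Only 83 of the higher and 223 of the lower transcripts were called again in each of the 8 fits that left out 1 library. Values of the lines did not overlap for 33.8% of all tested transcripts (16.1% higher and 17.6% lower in 9425), and for all 760 called ones.

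**Figure D1:**
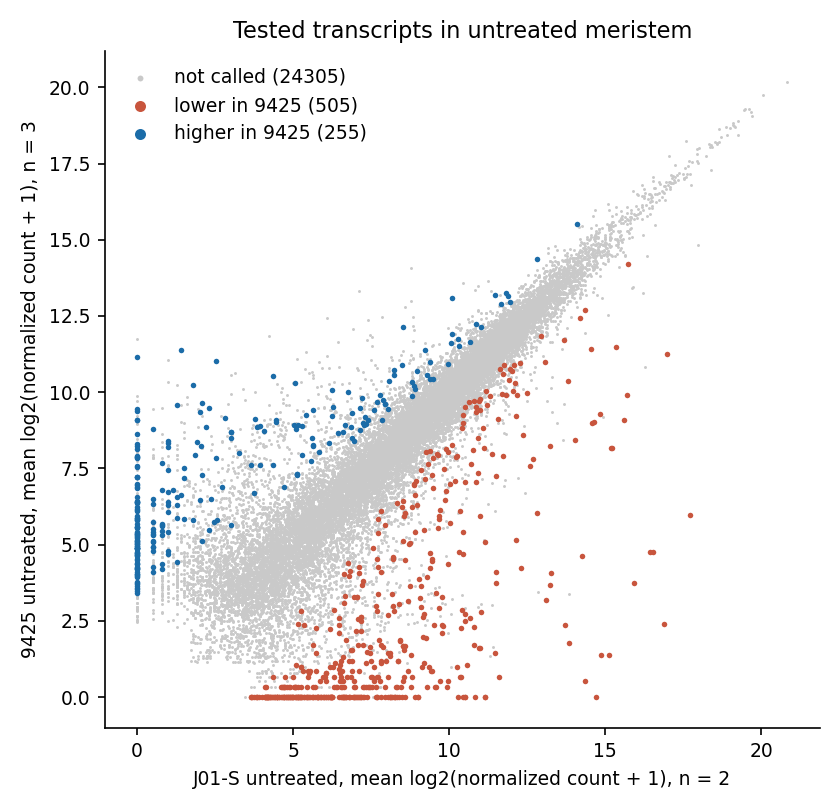
Mean log2(normalized count + 1) of each tested transcript in untreated J01-S (horizontal, n = 2) and untreated 9425 (vertical, n = 3), with 255 transcripts called higher in 9425 in blue, 505 called lower in red and the rest in grey. Many called transcripts lie on or near an axis, where 1 line is at or close to 0.

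The called differences were large. Of the 158 higher transcripts with both lines above 0, 119 had a log2 fold change over 2 and 42 over 5, with a median of 3.61. Of the 348 lower ones, 301 were past 2 in size and 177 past 5, with a median size of 5.02. Over the 24611 tested transcripts with both lines above 0 the median size was 0.42. The line with less of a transcript had a mean under 10 for 167 (65.5%) of the higher and 344 (68.1%) of the lower calls, against 10.6% of all tested transcripts. In 97 of the higher calls every J01-S library was listed at 0, and in 157 of the lower calls every 9425 library was. Called transcripts had shorter coding sequences, with a median of 630 bases for the higher and 666 for the lower calls against 972 for all tested.

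Only 13 of the 760 called transcripts have a description in the sources used here. The others are given by their position on assembly version 2, with the ID printed for 2 in each direction. Bs.00g206260.m01 (chromosome 3, 37005633 to 37013646) was at 5, 4 and 4 normalized counts in the 9425 plants and at 140361 and 104962 in the J01-S plants. Flur-R plants had 55771, 16848 and 70064, so the level near 0 was seen in 9425 alone. The log2 fold change of -14.48 ± 0.55 was the largest in size among called transcripts with both lines above 0 (adjusted p = 4.1e-05). Of the 10 largest decreases chosen by the fixed rule, 6 lay between 35 and 38 Mb of chromosome 3, where 16 of 37 tested loci were called, all of them lower in 9425, and the other 4 lay at 93 Mb of chromosome 6. Bs.00g527400.m01 (chromosome 6, 93688585 to 93689238) was the most abundant of these in J01-S, with 189946 and 244139 against 6, 16 and 2060 in 9425. Plant 3 of 9425 was more than 100 times above the others here, and the adjusted p of 0.0405 was lost without any 1 of 6 libraries (0.0536 to 0.201 without Flur-R plant 3 or 4, 9425 plant 1 or 2, or either J01-S plant), and was 0.0671 to 0.118 with other sets of libraries in the fit.

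The largest increases in 9425 were spread over more chromosomes. Bs.00g148180.m01 (chromosome 1, 27088558 to 27103028) had 3381, 2048 and 2797 in 9425 and 6 and 0 in J01-S, a log2 fold change of 9.99 ± 0.95 (adjusted p = 0.0017). Flur-R lay between the lines at 379, 207 and 1277. Bs.00g462210.m01 (chromosome 2, 67024930 to 67026261) had 3343, 2387 and 1469 in 9425 and was listed at 0 in both J01-S plants. It was at 3, 1438 and 1202 in Flur-R, and its adjusted p of 0.0478 rose to 0.112 to 0.219 when any 9425 or J01-S library was left out, to 0.116 over all 27 libraries and to 0.0656 with 8 added in place of 1. A transcript of chromosome 7 (83776774 to 83779039) had 3633, 1212 and 2061 in 9425, 10 and 2 in J01-S and 1 to 4 in Flur-R, so it was high in 9425 alone (log2 fold change 8.50 ± 0.76, adjusted p = 0.00131). A transcript of chromosome 9 (11573080 to 11578119) had 526, 1350 and 2427 in 9425 against 1 and 5 in J01-S (8.44 ± 1.07, adjusted p = 0.00611, and 0.0556 without J01-S plant 1). On chromosome 5 a transcript with a coding sequence of 2931 bases (6851168 to 6854098) had 480, 475 and 1305 in 9425 and was listed at 0 in every untreated J01-S and Flur-R library (adjusted p = 0.000463).

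A pair of increases on chromosome 4 may be 1 measurement. The transcripts at 16648112 and 16710306, each with a coding sequence of 363 bases, had 1369, 353 and 322 and 1379, 357 and 326 in 9425, and both were listed at 0 in J01-S. In Flur-R they had 3480, 2993 and 2318 and 3536, 3013 and 2355. The values nearly coincide in every library, and reads of near-identical copies cannot be assigned to 1 of them. A tested locus that was not called, at 16708275, lies between them. Among the 102 pairs of called loci with no tested locus between them, to which this pair does not belong, 2 other pairs differed by under 10% in every library in which either reached 10.

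Transcripts present in 1 line only were about as frequent in both directions. Present was taken as a normalized count of at least 10 in every library of a line, and absent as 0 in every library of the other. Line 9425 had 179 such transcripts, from 162 loci, with a median level of 59.0 and a highest mean of 3562. J01-S had 180, from 168 loci, with a median of 51.8 and a highest mean of 26756. Requiring that every transcript of a locus be at 0 in the other line left 160 loci for 9425 and 162 for J01-S. At a presence level of 50 both counts were 62. With only 1 J01-S library they rose. Without J01-S plant 1 they were 390 for 9425 and 382 for J01-S, and without J01-S plant 4 they were 343 and 403. Without 9425 plant 1 the J01-S count was 250, and without plant 2 or 3 of 9425 it was 209 or 221. The counts thus depended on the plants sampled as well as on the presence level. Fewer of the 9425-only than of the J01-S-only transcripts were called (85 of 179 against 157 of 180), and 31 of the former but 2 of the latter were at 50 or more in 1 Flur-R plant and at 0 in another.

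The most abundant transcript present only in J01-S (chromosome 3, 37813283 to 37819131) had 29715 and 23797 in J01-S, 20234, 4645 and 17118 in Flur-R and 0 in all 3 plants of 9425. The other J01-S-only transcripts of highest mean include both genes described as CYP90A1 and a transcript of chromosome 2 (61157758 to 61162192) with 3133 and 1656 in J01-S and 0 in every untreated 9425 and Flur-R plant. On the 9425 side the most abundant was at 67021198 on chromosome 2, next to Bs.00g462210, with 3639, 4631 and 2416 in 9425, 0 in J01-S and 0, 2320 and 2245 in Flur-R. It was not called (adjusted p = 0.0958), and was called without Flur-R plant 2 (0.000101). The second and the third were both transcripts of Bs.00g462210. The fourth, on chromosome 7 at 742819, had 379, 1476 and 1043 in 9425, 0 in J01-S and 0, 328 and 491 in Flur-R, with an adjusted p of 0.0863 and of 0.000709 without Flur-R plant 2. Both uncalled transcripts were also called with only the 5 libraries in the fit (0.00128 and 0.00443), with the plant as a random effect over the untreated and 3 HAT libraries (0.0184 and 0.0205) and over 25 libraries (0.0479 and 0.0436).

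Flur-R resembled neither line throughout. Of the 180 J01-S-only transcripts, 54 were at 10 or more in all 3 untreated Flur-R plants and 71 were at 0 in all 3. Of the 179 9425-only transcripts, 28 were at 10 or more in all 3, 24 were at 0 in all 3 and 127 fell between. Plant 2 carried only 17.9% of the 9425-only transcripts at 10 or more, against 65.4 and 57% in plants 3 and 4. Over the called transcripts, the Flur-R mean on the log2 scale was nearer to 9425 for 56.9% of the higher and 50.9% of the lower calls, against 47.5% of the transcripts not called.

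Plants of 1 line also differed from each other in this way. Between a 9425 and a J01-S plant, 644 to 671 of all 45517 transcripts were at 50 or more in 1 and at 0 in the other, over the 6 possible pairs. The 3 pairs within 9425 gave 112, 192 and 248, the pair within J01-S gave 470, and the 3 pairs within Flur-R gave 203 to 380. The inbred line thus had the 2 lowest counts of any pair within a line, and the J01-S pair the highest.

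**Figure D2:**
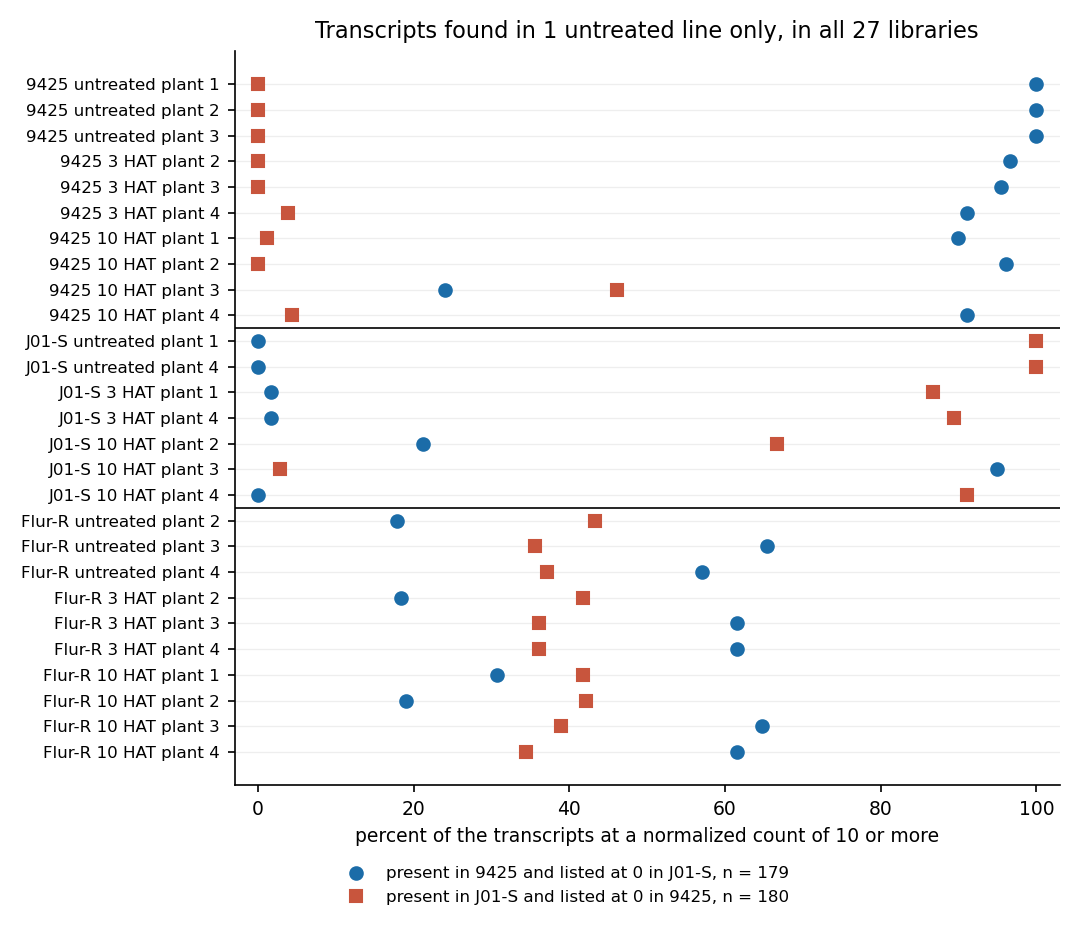
Percent of the 179 transcripts present in untreated 9425 only (blue circles) and of the 180 present in untreated J01-S only (red squares) that reached a normalized count of 10, in each of the 27 libraries, each from 1 plant. The untreated 9425 and J01-S libraries are at 0 or 100 by the choice of the transcripts; of the treated ones, 9425 plant 3 and J01-S plants 2 and 3 at 10 HAT stand apart from their lines.

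The same transcripts were then followed into the treated libraries, which come mostly from the same plants and so repeat rather than extend the comparison. At 3 HAT, 91.1 to 96.6% of the 9425-only transcripts were at 10 or more in 9425 and 1.68% in each J01-S library. The J01-S-only transcripts were at 10 or more for 86.7 and 89.4% in J01-S and for 0 to 3.89% in 9425. Of the called transcripts, 478 of 505 lower ones (94.7%) and 225 of 255 higher ones (88.2%) kept their direction with no overlap between lines at 3 HAT, against 19.4 and 19.7% of all tested transcripts. At 10 HAT only 35 (6.93%) and 4 (1.57%) did, against 3.59 and 2.79% of all tested. Without the library labelled 9425 10 HAT replicate 3 and that labelled J01-S 10 HAT replicate 3 the counts were 393 (77.8%) and 198 (77.6%), against 17.4 and 18.2%.

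Both of these libraries went against their labels. The library labelled J01-S plant 3 at 10 HAT had 95% of the 9425-only transcripts at 10 or more and 2.78% of the J01-S-only ones. The library labelled 9425 plant 3 at 10 HAT had 24 and 46.1%, where untreated plant 3 had 100 and 0 by the choice of transcripts. Neither entered the main comparison, but both are in every fit described as over 27 libraries. Plant 4 of 9425 and plant 2 of J01-S have no untreated library here, and their libraries at 10 HAT had no part in the choice of transcripts. Of the 255 higher calls 84.3% were higher in that 9425 library, and of the 505 lower calls 81.4% were lower, against 50.3 and 48.2% of all tested transcripts. J01-S plant 2 nevertheless held 21.2% of the 9425-only transcripts at 10 or more and lacked the J01-S-only ones in part, with 66.7% at 10 or more.

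Called loci were not evenly spread along the chromosomes. Of 23237 tested loci, 708 had a called transcript (3.05%), 1.02% higher and 2.03% lower. Where a locus was called, the next tested locus on the chromosome was called too in 102 of 707 cases (14.4%, 95% Wilson interval 12 to 17.2), and in 86 cases (12.2%) in the same direction. A called locus lay within 2 tested loci on either side for 33.8% of called loci and 10.6% of all tested loci. The interval covers counting error only, since neighbouring loci can share reads and are not independent. By chromosome the share called ran from 2.28% on chromosome 5 to 4.45% on chromosome 9, with 3.74% on chromosome 3 and 7.44% (27 of 363) on the sequence unscaffolded1, which is not assigned to a chromosome. Chromosome 7 had more higher (36) than lower (24) loci, and each of the other 8 numbered chromosomes had more lower ones.

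**Figure D3:**
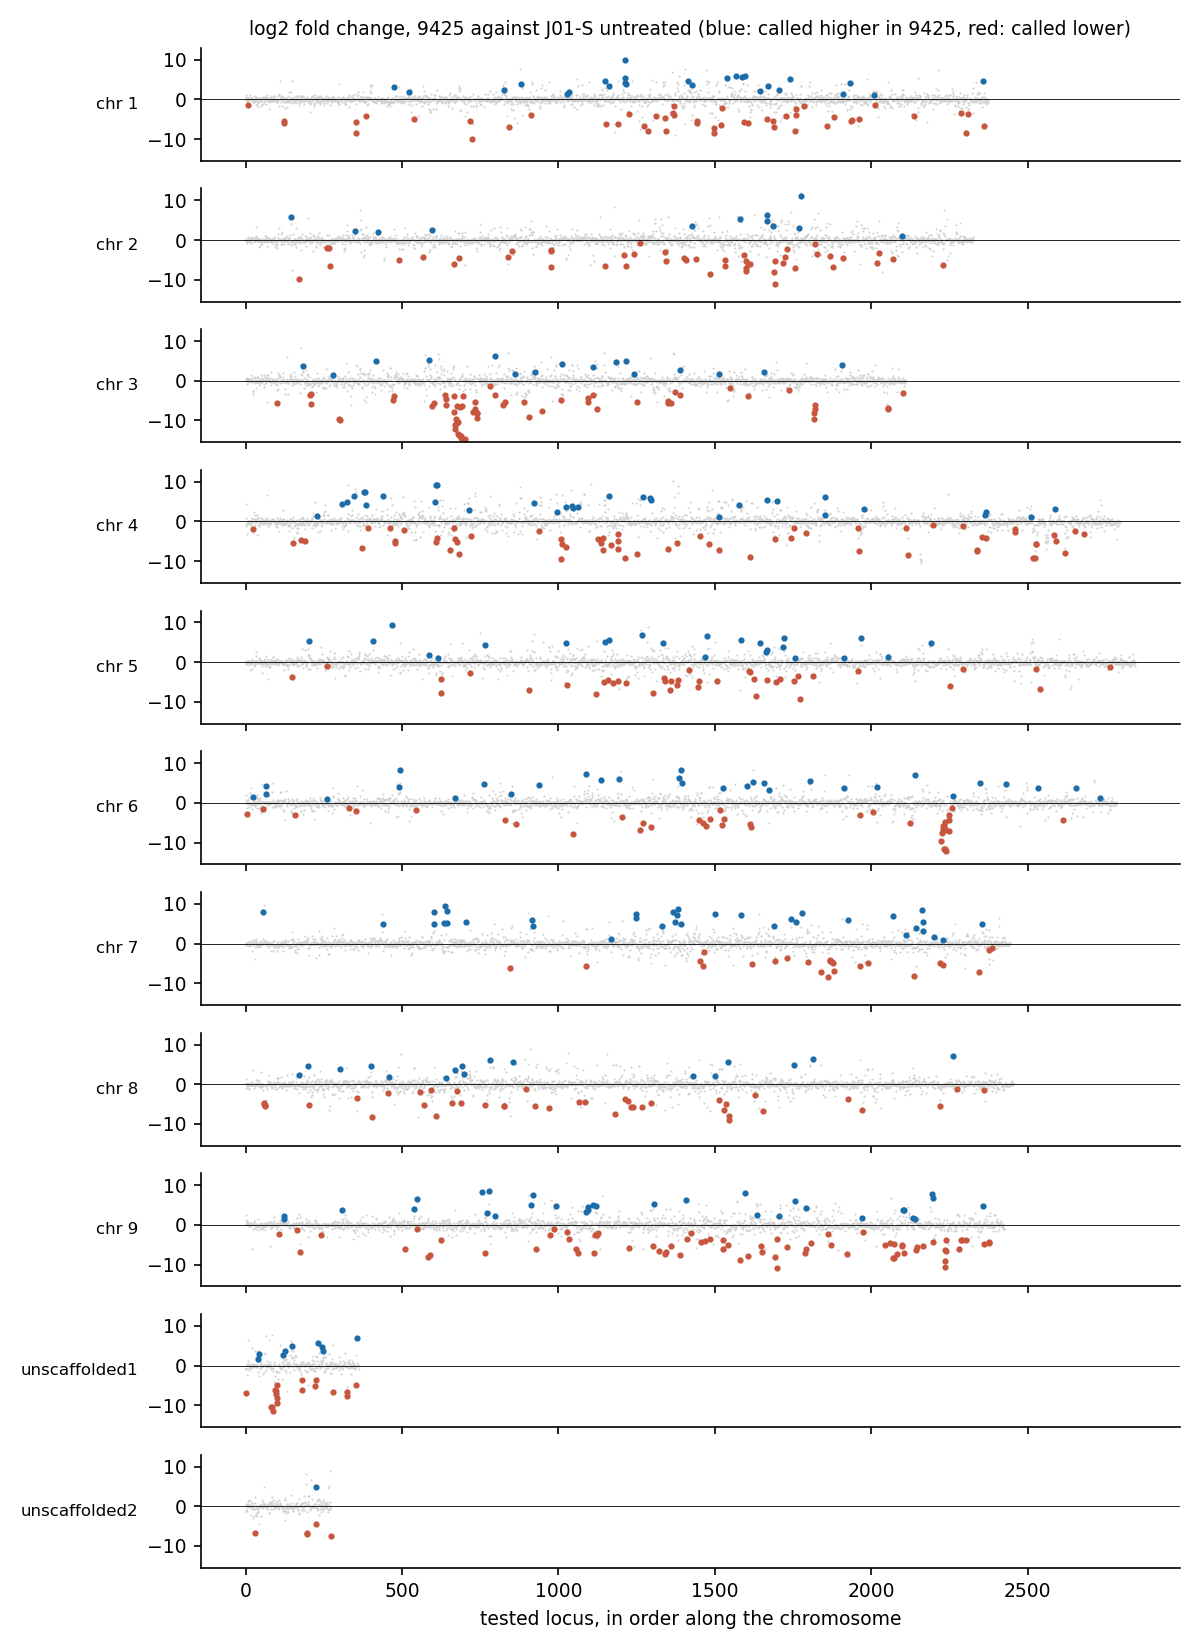
Log2 fold change of 9425 against J01-S for every tested locus, in order along each chromosome and the 2 largest unplaced sequences, with called loci in blue (higher in 9425) and red (lower) and the rest in grey. Values of loci at 0 in 1 line depend on the 1 added before log2; columns of red points stand out on chromosomes 3 and 6 and on unscaffolded1.

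Of 784 windows of 1 Mb with at least 10 tested loci, 402 held no called locus and 19 had at least 20% of their loci called. The 5 windows with the highest share were 3 neighbours on chromosome 3 (35 to 38 Mb), 93 to 94 Mb of chromosome 6 and 15 to 16 Mb of unscaffolded1. Together they held 33 called loci of 81, and all 33 were lower in 9425. Runs of neighbouring called loci showed the same direction: of 14 runs of at least 3 loci, 12 were lower in 9425 throughout, 1 was higher throughout and 1 was mixed. Windows and runs were taken from the main fit alone. Without Flur-R plant 2 the fit called 431 higher and 515 lower transcripts, against 255 and 505 with it. Whether windows, runs and neighbour shares keep this direction without that plant was not tested. Most called loci (522) had no called neighbour.

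The longest run was on chromosome 6 (93728572 to 93891096), 5 loci in 163 kb, all lower in 9425. Its first locus, at 93728572, had 69459 and 127644 in J01-S and 26, 2 and 247 in 9425 (log2 fold change -11.76 ± 1.84, adjusted p = 0.0158). The loci at 93774199 and 93810084 had coding sequences of the same length as the first, 567 bases, and similar values: 61377 and 127212 in J01-S against 26, 2 and 242 in 9425, and 46535 and 81876 against 6, 0 and 345. How far these copies share reads was not tested. The calls of these 3 loci were lost without either J01-S plant, with adjusted p from 0.0918 to 0.169, and that of the locus at 93810084 also without 9425 plant 1 (0.0764) or 2 (0.0524) or with only the 5 libraries in the fit (0.0579). The last locus of the run is the Kunitz-type proteinase inhibitor Bs.00g527540.m01 (93890461 to 93891096), a family of small plant proteins that block digestive proteases of insects and microbes. It had 5164 and 10050 in J01-S, 97, 46 and 60 in 9425 and 120, 292 and 942 in Flur-R (-6.78 ± 0.80, adjusted p = 0.00425). All 3 plants of 9425 were far below both J01-S plants, and Flur-R was nearer to 9425.

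The window around this run, 93 to 94 Mb, held 11 called loci of 28 tested, all lower in 9425. Besides Bs.00g527400.m01 above, the highest mean in J01-S was at 93645818, with 213812 and 80184, where 9425 had 4438, 1660 and 1935 and Flur-R 20729, 9706 and 55142 (-5.75 ± 0.78, adjusted p = 0.00821, and 0.0697 without J01-S plant 1 or 0.0721 over 27 libraries). All 3 plants of 9425 were below both J01-S plants there, but well above 0, whereas the called locus at 93742933 was listed at 0 in 9425 and had 24 and 37 in J01-S. The 17 loci of the window that were not called had a median log2 fold change of -0.49, and 15 of them had a mean of at least 10 in 9425.

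On unscaffolded1, between 11 and 16 Mb, 8 of 24 tested loci were called and all were lower in 9425. Those given here were chosen after their values were seen. The locus at 15270019 had 14974 and 12317 in J01-S, 14015, 5732 and 10867 in Flur-R and 4, 6 and 3 in 9425 (log2 fold change -11.35 ± 0.41, adjusted p = 4.1e-05). Loci at 11672347 and 11687060 were listed at 0 in every 9425 plant, with 1484 and 1439 and with 1302 and 1509 in J01-S. All 8 called loci had a Flur-R mean of at least 10, so at these loci 9425 was the line that differed. The locus at 12296076, not called, went the other way. It had 83, 230 and 511 in 9425, 0 in both J01-S plants and 0, 116 and 166 in Flur-R (adjusted p = 0.106). ABCG34 (Bs.00g184080, 15808363 to 15876768), a transporter of the ABCG family that exports small molecules across the plasma membrane, lies in this stretch of unscaffolded1. Its isoform 1 had 1565 and 2569 in J01-S, 2919, 1036 and 2487 in Flur-R and 6, 1 and 1 in 9425 (-9.37 ± 0.69, adjusted p = 0.000643), and isoform 2, which shares its reads, had nearly the same values. Over all 27 libraries, which include the 2 at 10 HAT that went against their labels, the adjusted p values were 0.0548 and 0.0555. The 16 loci that were not called had a median log2 fold change of -0.57. One of them, at 15774867 between called loci, had 9, 30 and 34 in 9425 against 127 and 122 in J01-S (-2.50, adjusted p = 0.0887), and another, at 15470845, had 378, 239 and 342 against 287 and 212 (0.35, adjusted p = 0.63).

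In other runs J01-S was the line that differed. These were chosen after their values were seen. On chromosome 3, 4 loci within 13.1 kb (99881598 to 99894677) had 1048 and 890, 437 and 210, 66 and 64, and 232 and 89 in J01-S. All 4 were at 0 or 1 in every untreated 9425 and Flur-R plant, and each was called in every fit that left out 1 library. On chromosome 9, 3 neighbouring loci (94964767 to 95031205) with 832 and 2589, 392 and 678, and 67 and 80 in J01-S were listed at 0 in all 6 plants of the other lines. On chromosome 2, 3 neighbouring loci in 10.3 kb (54556530 to 54566849) had 50 to 273 in J01-S, 0 in Flur-R and 0 or 4 in 9425. On chromosome 4, 3 neighbouring loci (56304687 to 56308594) were by contrast higher in both J01-S and Flur-R. The first of them had 129 and 113 in J01-S, 311, 150 and 160 in Flur-R and 0 in 9425, and the last had 21, 19 and 27 in 9425 against 252 and 165 in J01-S.

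The only run of at least 3 loci that was higher in 9425 throughout was on chromosome 1 (27011883 to 27159992), 4 loci in 148 kb. Its loci other than Bs.00g148180 were chosen after their values were seen. Its first locus had 1676, 998 and 1222 in 9425, 47 and 22 in J01-S and 717, 395 and 642 in Flur-R (log2 fold change 5.26 ± 0.42, adjusted p = 0.000895, and 0.0504 over 27 libraries), and Bs.00g148180 belongs to it. The loci at 27081479 and 27154296 were low in 9425 (14, 12 and 32; 14, 9 and 25), at 0 in J01-S and highest in Flur-R (304, 137 and 115; 422, 196 and 154). The calls of both low loci were lost without 9425 plant 3 or either J01-S plant, with adjusted p from 0.0575 to 0.0916, and with 8 added in place of 1 (0.135 and 0.173). On chromosome 7, between 8 and 9 Mb, 4 of 21 tested loci were called and all were higher in 9425. They included a transcript of 3657 coding bases at 8553777, with 446, 716 and 1030 in 9425, 0 in both J01-S plants and 115, 709 and 2244 in Flur-R (adjusted p = 0.00381), and one at 8789595 with 983, 679 and 687, 1 and 2, and 1470, 1419 and 7798 (8.30 ± 0.72, adjusted p = 0.00113).

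**Figure D4:**
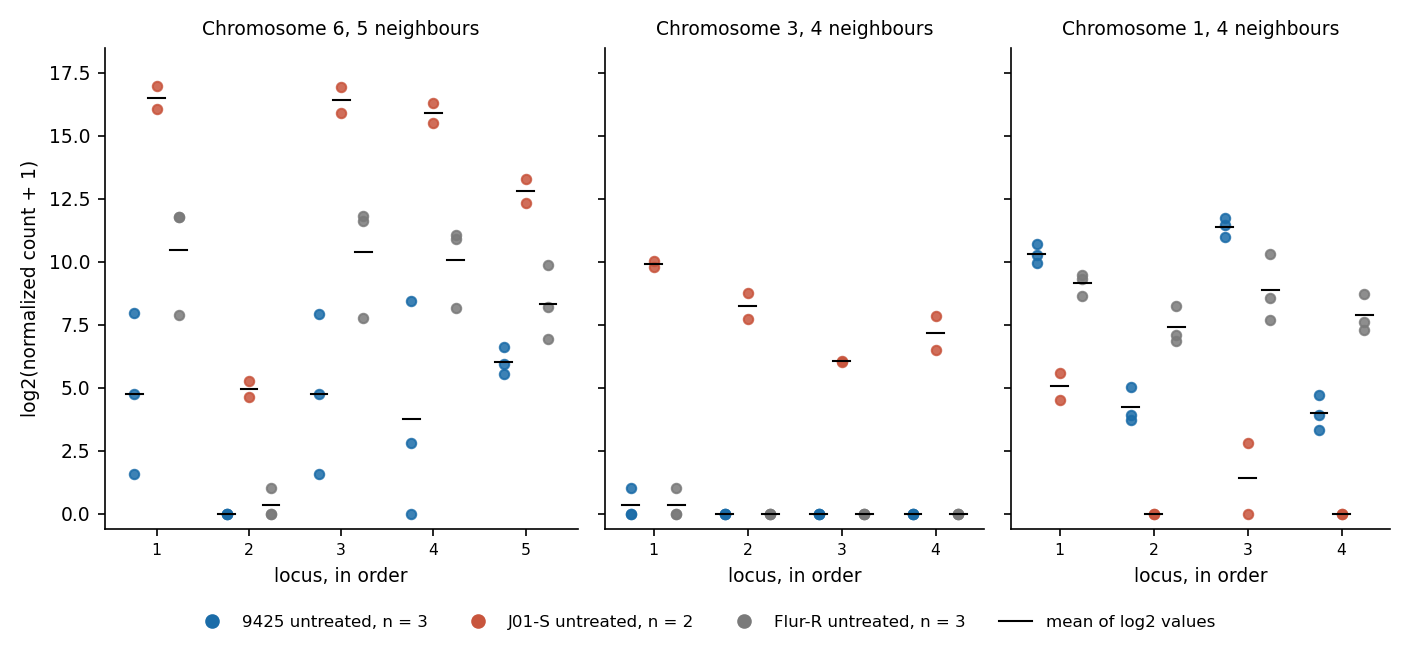
Log2(normalized count + 1) in every untreated library of the members of the 3 longest runs of neighbouring called loci, in order along the chromosome, 1 point per plant and a bar at the mean. The chromosome 6 loci are lower in 9425 with Flur-R mostly between the lines, the chromosome 3 loci are at or near 0 in 9425 and Flur-R, and the chromosome 1 loci are higher in 9425 than in J01-S.

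Among the 198 transcripts that the paper describes, 167 were tested, 4 were higher and 9 lower in 9425 (7.78% called, against 3.03% of all tested). The study took many of these genes from its own tests on these libraries, so the share is a description. Of 12 cytochrome P450s tested, 4 were lower in 9425 and none was higher, with a median log2 fold change of -0.82 against -0.01 over all tested. All those called except CYP86A7 lay between 35 and 38 Mb of chromosome 3, where 16 of 37 tested loci were called lower. The count thus rests largely on this stretch. Both genes described as CYP90A1 (chromosome 3, 35485782 and 35511173) are named for an enzyme of brassinosteroid synthesis, the pathway of a growth hormone. Their coding sequences are 681 and 573 bases, against 1458 to 1581 for the other P450s given in this paragraph. Whether these 2 gene models are parts of 1 gene was not tested. They had 1993 and 2638 and 1806 and 1812 in J01-S and were listed at 0 in all 9425 plants. A P450 without a family name (Bs.00g206320.m01, chromosome 3, 37079544 to 37083261) had 22306 and 19628 in J01-S and 0, 2 and 0 in 9425 (-13.82 ± 0.68, adjusted p = 0.000163). CYP86A7 (Bs.00g417520.m01, chromosome 5, 112824656 to 112826236), of a family that hydroxylates fatty acids for cutin, had 3566 and 3119 in J01-S against 951, 1056 and 938 in 9425. Its log2 fold change was -1.77 ± 0.31 (adjusted p = 0.0244), and the call was lost without any 1 of the 5 libraries (0.0656 to 0.147), and with the 3 HAT libraries, the plant as a random effect or all 27 libraries in the fit (0.0559 to 0.0632). CYP82D47 went the other way without being called (Bs.00g486870.m01, means 713 and 61.0, adjusted p = 0.156); it was picked after its values were seen.

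Of the 5 glycosyltransferase transcripts tested, 2 were higher in 9425 and none was lower, where 1.02% of all tested transcripts were higher and 2.01% lower. The median log2 fold change of the list was -1.09, opposite in sign to both calls. The glucosyltransferase 85A23-like gene (Bs.00g142720.m01, chromosome 1, 19040650 to 19047143) had 9366, 9702 and 10312 in 9425, 3549 and 3662 in J01-S and 7691 to 8952 in Flur-R. Plants within each line hardly differed, and the log2 fold change was 1.44 ± 0.15 (adjusted p = 0.00236). The call was lost with 27 (0.078) or 25 libraries (0.0519) in the fit, and with the plant as a random effect over the untreated and 3 HAT libraries (0.0844). A UDP-glycosyltransferase (Bs.00g396960.m01, chromosome 5, 81340749 to 81343042) had 730, 617 and 591 in 9425 against 120 and 116 in J01-S (2.44 ± 0.46, adjusted p = 0.0345, and 0.0506 to 0.17 without Flur-R plant 3 or any of the 5 libraries). Of the 2 chalcone or stilbene synthases tested, 1 was called, against 3.03% of all tested transcripts. The called gene (Bs.00g518030.m01, chromosome 6, 79360933 to 79363823), of a family that makes the polyphenol skeletons of flavonoids or stilbenes, had 1013, 678 and 471 in 9425. It had 43 and 54 in J01-S and 29, 58 and 41 in Flur-R, so 9425 was the line that differed (3.80 ± 0.46, adjusted p = 0.00465). A strictosidine synthase family member (Bs.00g057800.m01, chromosome 8, 97212856 to 97216298) had 4310 and 3414 in J01-S against 1568, 941 and 1693 in 9425 (-1.50 ± 0.29, adjusted p = 0.0377). This call was lost without Flur-R plant 3, 9425 plant 1 or 3 or either J01-S plant (0.0604 to 0.21), and with other sets of libraries in the fit (0.0506 to 0.171).

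Among the remaining described genes, a WAT1-related protein (Bs.00g535160.m01, chromosome 6, 102146247 to 102150458) had 385, 545 and 510 in 9425, 40 and 36 in J01-S and 301, 238 and 211 in Flur-R. WAT1 itself is a vacuolar auxin transporter in Arabidopsis. The log2 fold change was 3.61 ± 0.30 (adjusted p = 0.00102). A cellulose synthase (Bs.00g056700.m01, chromosome 8, 96118591 to 96124042), which builds the cell wall polymer, had 4259 and 5621 in J01-S against 1792, 1849 and 2362 in 9425 and 2130 to 2274 in Flur-R (-1.30 ± 0.20, adjusted p = 0.0134, and 0.0796 without J01-S plant 4, 0.105 over 27 libraries, 0.0811 over 25 and 0.0507 with the plant as a random effect). Of the 6 ABC transporter transcripts tested, those called were the 2 isoforms of ABCG34, which share reads, where 3.03% of all tested transcripts were called.

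**Figure D5:**
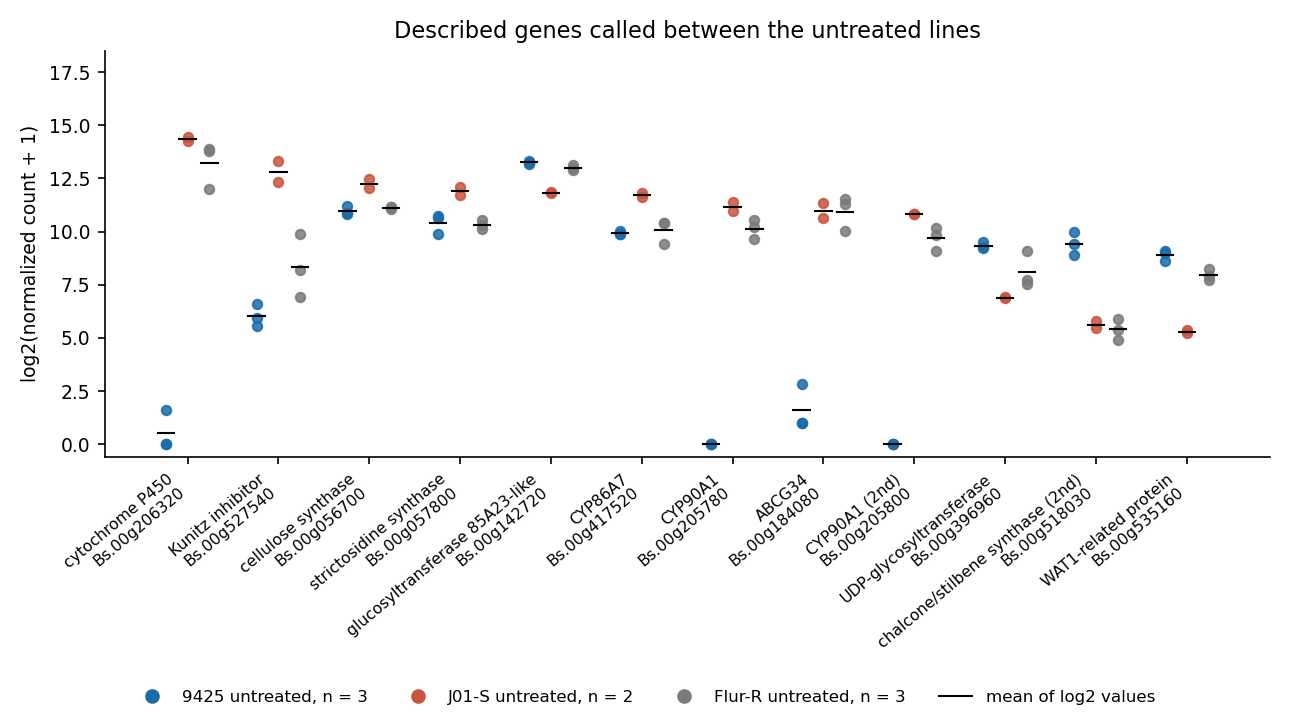
Log2(normalized count + 1) in every untreated library of the described genes called between 9425 and J01-S (isoform 1 of ABCG34 only), 1 point per plant and a bar at the mean, ordered by their mean in J01-S. The unnamed cytochrome P450, both CYP90A1 genes and ABCG34 are at or near 0 in 9425 and high in the other lines, and the other genes differ by less.

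None of the 10 auxin transcripts tested was called, where 3.03% of all tested transcripts were. The lines did not overlap for 3 of them, against 33.8% of all tested, and their median log2 fold change was -0.54. The auxin repressor IAA29 (Bs.00g048560.m01) had 635, 1119 and 549 in 9425 against 2390 and 1583 in J01-S (-1.41 ± 0.53, adjusted p = 0.231). It was called in the fits over 27 (0.0416) and 25 libraries (0.0254), which count libraries of the same plant as separate plants. Against the same 3.03% of all tested, no call was made among the 13 photosynthesis and chloroplast transcripts, the 8 nitrate, peptide and amino acid transporters, the 5 clock and flowering genes, the 3 early light-induced proteins, the 3 genes of abscisic acid and carotenoid cleavage, the 3 methyltransferase transcripts or the 2 ethylene and AP2/ERF genes. Against 33.8% of all tested, the lines did not overlap for 6 of the 8 transporters and 3 of the 3 abscisic acid and carotenoid cleavage genes. The same held for 2 of the 13 photosynthesis transcripts, and the median log2 fold changes of these lists were 1.24, -0.96 and -0.16. It also held for 2 of the 3 early light-induced proteins and 2 of the 3 methyltransferase transcripts. Among clock and flowering genes it held for 1 of 5, and among ethylene and AP2/ERF genes for 1 of 2. Among the 3 lipoxygenases, which oxidise fatty acids on the way to jasmonate, Bs.00g124870.m01 had 10795, 25667 and 18951 in 9425 and 299 and 646 in J01-S. Flur-R plants had 181, 7141 and 1184, and the log2 fold change of 5.30 ± 1.30 missed the threshold (adjusted p = 0.0841). It was called with only the 5 libraries in the fit (0.00684), with the plant as a random effect (0.0393), without Flur-R plant 2 (0.0153) or without Flur-R plant 3 (0.0249). An S-adenosylmethionine-dependent methyltransferase (Bs.00g383340.m01) had 81596 and 43486 in J01-S and 8763, 24849 and 6078 in 9425, and was not called (-2.44 ± 1.15, adjusted p = 0.341).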

How the data were processed

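Tissue labelled as meristem was sequenced as rRNA-depleted total RNA. The authors aligned reads with HISAT2 (2.1.0 per the labels) to the coding sequences of genome assembly version 2, then counted reads by transcript and applied the DESeq normalization. The authors' own tests used DESeq2 1.28.1. What they deposited is a score: normalized counts rounded to whole numbers, so read counts could not be recovered. A read that differs from the reference sequence can fail to align, so a value of 0 need not mean no expression; this was not tested, and which line the assembly was made from was not used here. Isoforms and near-identical copies share reads.

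Values were fitted with limma 3.58.1 (R 4.3.3, variance trend) on log2(normalized count + 1), 1 mean per line over the 8 untreated libraries. All 27 libraries were not used because 2 at 10 HAT go against their labels and because the 3 and 10 HAT libraries mostly repeat the same plants. Of the alternatives with treated libraries, only the fit with the plant as a random effect allowed for repeated plants. The fit was tested on simulated data. Each of the 8 untreated libraries is a separate plant. Loci were ordered by start in the gene models on the same assembly, which carry no descriptions; names come from the paper. The transcripts named are the 10 largest called changes in each direction (no overlap, higher mean at least 50, 1 per locus), all described and called transcripts, the 2 of smallest p in lists with no call, the 3 most abundant in the 3 densest windows, the ends of the longest run and the 5 most abundant of those present in 1 line only, in each direction; any other locus was chosen after its values were seen. Members, lists and rules were chosen with earlier results of these data known. Alternatives were other added values (0.5 and 8), filters, TMM scaling, other samples in the fit, isoforms summed by locus, robust variance, a log2 threshold of 1, other presence and absence levels, and each library left out; where 1 J01-S library remained, it was assumed to vary like the others. Python 3.11.15 was used for the rest.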

Additional observations from a re-analysis of the deposited data

Results flagged for a closer look

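Among the 4 libraries of 9425 at 10 HAT, that of plant 3 lay far from the others on both sets of transcripts present in 1 untreated line only. It had 24% of the 9425-only transcripts at 10 or more, where the other 3 had 89.9 to 96.1%, and 46.1% of the J01-S-only transcripts, where they had 0 to 4.44%. The gap to the nearest library was 0.914 and 0.904 of the range, above the value of 0.829 that 1 in 20 groups of 4 passes by chance. The same 2 measures in the 4 Flur-R libraries at 10 HAT were not far apart in this sense, and groups of 2 or 3 libraries were not examined. The main fit of the untreated comparison did not use this library, but the alternative over all 27 libraries did.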

How the results depend on the processing

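The counts of transcripts called depended on which libraries estimated the spread. The 255 higher transcripts became 124 with a filter at 50, 409 with only the 5 libraries compared, 495 with the 3 HAT libraries added, 595 with the plant as a random effect in that fit and 715 over 25 libraries without the 2 in doubt. The 505 lower ones became 283 at the filter of 50, 761 with the plant as a random effect and 905 over 25 libraries. The cause was not tested, beyond the smaller number of transcripts at the filter of 50. Apart from the fit with the plant as a random effect, the fits with treated libraries counted libraries of the same plant as separate plants. Leaving out 1 library gave 106 to 431 higher and 333 to 538 lower transcripts. Other added values, no filter, the filter over 27 libraries, TMM scaling, all 27 libraries, summed isoforms, robust variance and a log2 threshold of 1 stayed within 1.5 times in number. The transcripts called were not always the same. The fit over all 27 libraries kept only 137 (53.7%) of the higher and 330 (65.3%) of the lower calls. No transcript called in the main comparison was called in the opposite direction under any alternative fitted by transcript. The 160 loci present only in 9425 and the 162 only in J01-S became 62 and 62 at a presence level of 50 and 276 and 316 when up to 3 counted as absent, and ranged over 182 to 390 and 209 to 403 when 1 library was left out. The 14.4% of called loci with a called next locus was 33.8% within 2 loci on either side and 11.8 to 13.4% without 1 library. Of 58 called transcripts looked at singly, 38 were called under all 16 alternatives fitted for them and none reversed. Leaving out J01-S plant 4 lost 14 of the 58 calls and leaving out plant 1 lost 13. Over all 27 libraries, which include the 2 in doubt, 11 lost the call, among them ABCG34 (Bs.00g184080.m01, 0.0548), CYP86A7 (Bs.00g417520.m01, 0.0632), the strictosidine synthase family member (Bs.00g057800.m01, 0.171) and Bs.00g462210.m01 (0.116). With 8 added 4 did, and with only the 5 libraries compared 4 did. No paired analysis was possible because the 2 lines share only plant number 1, which marks different plants. Read totals and alignment shares per library are given in the paper's supplement and were not used here. With 2 J01-S plants a level of 0 in that line rests on 2 values.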
